A study of Cucumis sativus with 18 samples.

Results

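Cucumber (Cucumis sativus) embryos after 20 days of ovary culture were compared with embryos after 10 days, in 3 libraries of each time. These 6 libraries belong to a series of 18, which also holds fresh unpollinated ovaries, ovules of day 2 and embryos of days 30 and 60, with 3 libraries for each. The 6 libraries were taken by the time label, day 10 and day 20, and not by a measured value. The comparison itself was chosen with earlier results of these data known. Every library carries the tissue label ovary, and the design text gives 3 biological replicates per time. No genotype, medium, hormone, temperature or plant is named in the labels, so nothing beyond the day of culture is known to differ between these embryos, and whether the libraries of 1 time came from separate plants or cultures is not stated. If they did not, the p-values measure a spread that may be partly technical.

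In ovary culture, unfertilised ovaries or ovules are kept on a nutrient medium so that cells of the female gametophyte divide and form embryos without pollination. The embryos are often haploid, and doubling their chromosomes gives fully homozygous lines for breeding. A plant embryo passes from cell division and patterning to the growth of cotyledons and the filling of reserves, and tissue cultured from an ovary can also hold ovule and ovary wall cells. In whole tissue, fewer cells of a type and less RNA per cell cannot be told apart. Genes are given by the IDs of the files, since 0 of the 23248 IDs matched an entry of the RefSeq gene table. The label embryo could therefore not be set against marker genes, and no function is given to any gene. By the naming of these IDs, the digit after Csa is the chromosome.

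The values were RPKM, reads per kilobase of gene and per M (mega) reads, and the test was limma on log2(RPKM + 1), with p-values adjusted after Benjamini and Hochberg and called under 0.05. Of the 23248 genes, 18153 reached an RPKM of 1 in at least 3 of the 18 libraries and were tested, and 16416 reached it in 3 of the 6 libraries of day 10 and day 20. The 1737 tested genes that did not reach it there passed the filter through other times, and 286 or 16.5% of them were called, below the share over all tested genes given with the comparison.

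The replicate 1 libraries stood apart at both times. At day 10 they were sequenced to 23.2, 31.4 and 57.4 M reads for replicates 1, 2 and 3, and listed 17653, 19121 and 20160 genes above 0. At day 20 the depths were 26.7, 32.4 and 66.5 M reads and the libraries listed 18591, 19817 and 20517 genes. Brought to 20 M reads in each library, the expected numbers were 17648, 19037 and 19712 at day 10 and 18581, 19682 and 20058 at day 20, so that replicate 1 still listed the fewest. In the replicate 1 library of day 10, 1538 genes were at 0 that had reads in both other libraries, against 188 for replicate 2 and 15 for replicate 3. At day 20 these numbers were 1271, 141 and 24. The 1538 genes held a median of 18 reads in the other libraries and were shorter than most, with a median length of 1243 bases against 2580 bases over all genes above 0. This was not particular to replicate 1: the genes at 0 only in replicate 2 or only in replicate 3 of day 10 had medians of 1073 and 777 bases. Lengths worked out for genes with few reads may also be too short. Bringing the replicate 1 libraries to 20 M reads hardly changed their numbers. Replicate 2 of day 2, at 21.8 M reads, went from 19268 to 19237 genes. The calculation only lowers depth, so it could not restore genes with few reads if these were missing from replicate 1. The part of such a loss, or of RNA quality, in the low number of genes of replicate 1 was not tested.

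**Figure D1:**
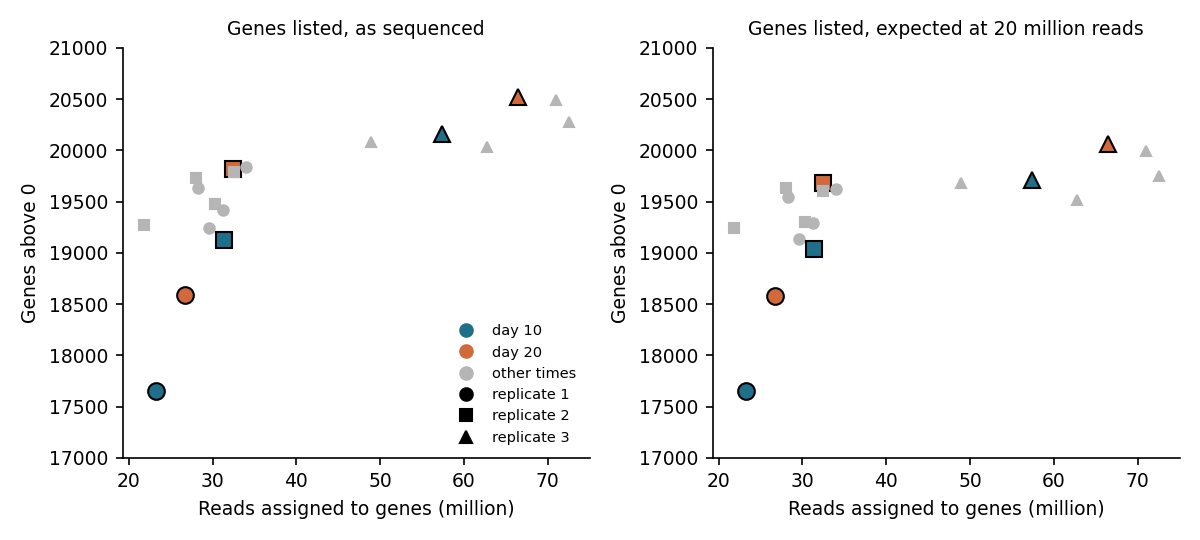
Genes with a value above 0 (y axis) against the reads assigned to genes (x axis, M) in each of the 18 libraries, as sequenced on the left and calculated for 20 M reads on the right; blue is day 10, orange day 20, grey the other times, and the symbol is the replicate number. The replicate 1 libraries of day 10 and day 20, at 17653 and 18591 genes, are the lowest of all, and remain so at 20 M reads, at 17648 and 18581.

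The number of genes at an RPKM of at least 1 was higher at day 20. It was 15508, 15846 and 15971 in the day 10 libraries and 16149, 16410 and 16484 in those of day 20, and the groups did not overlap. The difference of 573 genes gave p = 0.1 in a two-sided exact permutation test, the smallest p that 3 against 3 allows. The share of reads in the 100 most abundant genes of a library was 15.2%, 13.4% and 13.3% at day 10 and 14.8%, 13.8% and 13.6% at day 20. These groups overlapped (exact permutation p = 0.9, two-sided). Across genes on log2(RPKM + 1), pairs of libraries of the same time correlated at r of 0.957 to 0.987, and pairs of different times at 0.901 to 0.940. This is a description over 18153 genes of the same libraries.

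Between the times, 5617 genes were called, which is 30.9% of those tested. Of these, 2983 were higher at day 20 (16.4% of tested genes) and 2634 were lower (14.5%). Among all tested genes, called or not, 77.9% differed by less than 1.5-fold. Of the called genes, 2113 rose and 1405 fell by at least 1.5-fold. Their median log2 fold change was 0.80 in all called genes that rose and -0.61 in all that fell. On the log2(RPKM + 1) scale, at least a 2-fold change was seen in 1069 genes that rose and 575 that fell. At least a 4-fold one was seen in 196 and 96, and at least an 8-fold one in 39 and 30. At 16-fold and above there were 4 genes higher and 6 lower on this scale. It understates the change of genes that are low at 1 time, so these counts do not show that the order turned. Day 10 and day 20 libraries did not overlap for 6527 genes, 36.0% of those tested.

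The number of called genes depended on which libraries estimated the spread. The lowest correlation between libraries of the same time was 0.957 at day 10 and 0.958 at day 20. At the other times, which share the spread in the main fit, it was higher. It was 0.982 in fresh ovaries, 0.974 at day 2, 0.978 at day 30 and 0.984 at day 60. In a limma fit on the 6 libraries alone, 3113 genes were called, 17.1% of those tested, and 99.1% of them were also called with 18 libraries. The difference was in small changes, since genes changed at least 4-fold numbered 193 higher and 96 lower with 6 libraries. Without replicate 1 of both times 5004 genes were called (27.6%) with the spread taken from the 16 libraries left, including 77.8% of the 5617, and none of the 5617 turned direction in that fit. In the 4 libraries of day 10 and day 20 left without replicate 1, 3501 genes were called (19.3%), and 3199 of them were among the 5617. With the replicate number as a block, 7289 genes were called over 18 libraries (40.2%) and 5224 over the 6 (28.8%). Tested against a 2-fold change, 527 genes passed (2.90%), 343 higher and 184 lower. Whether more genes rose or fell depended on the scaling: 2762 were higher and 2869 lower when libraries were scaled on genes outside the 100 most abundant, and 3333 and 2231 under upper quartile scaling.

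**Figure D2:**
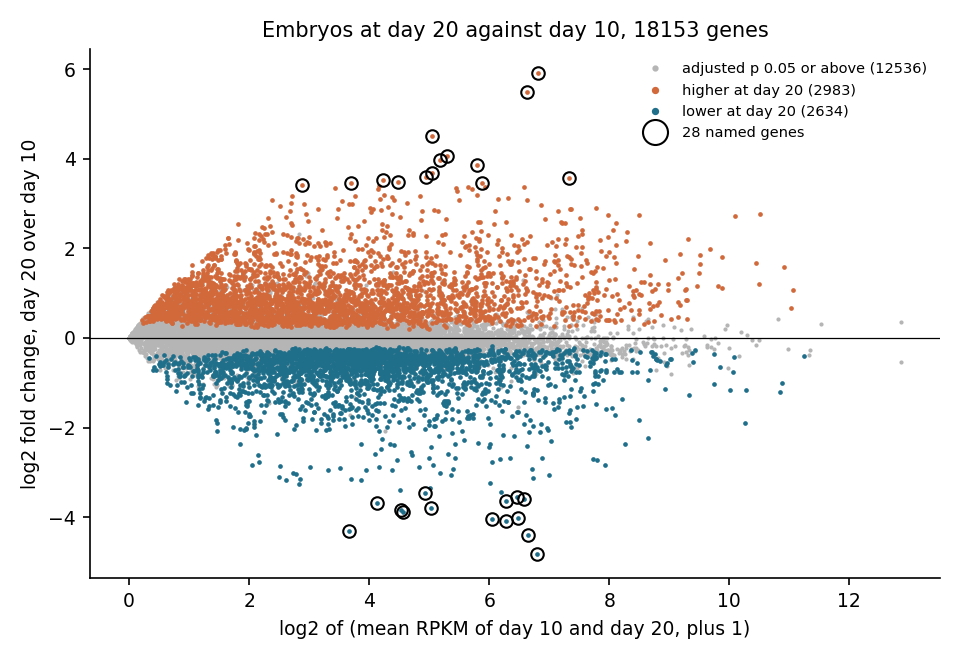
Log2 fold change of day 20 over day 10 (y axis) against the log2 of the mean RPKM of both times plus 1 (x axis) for 18153 tested genes; orange genes were called higher at day 20 (2983), blue genes lower (2634), grey genes were not called, and circles mark the 28 genes described one by one. The points of the called genes lie mostly within 1 log2 unit of 0, and the circled genes lie beyond 3.4 on either side.

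The frequency of change and its direction varied with the level of a gene. Among 804 genes with a mean RPKM of 100 or more in the 6 libraries, 236 were higher and 218 lower at day 20, or 56.5% called. Among the 3156 genes at 20 to 100 RPKM, 621 were higher and 746 lower, and among the 6669 genes at 5 to 20 RPKM, 898 and 1143. In the 5659 genes at 1 to 5 RPKM the order was the other way, with 943 higher and 476 lower. Of the 1865 genes under 1 RPKM, 285 were higher and 51 lower, so that 84.8% of the called genes of this class were higher. These low genes rest on few reads. Among tested genes of all levels, 878 were at 0 in replicate 1 of day 10 and above 0 in both other libraries of that day. For replicate 1 of day 20 there were 501 such genes. The part of these zeros in the direction of the low genes was not tested. The share called was higher at higher levels in the fit on 6 libraries too, from 6.54% under 1 RPKM to 40.0% at 100 RPKM or more.

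**Figure D3:**
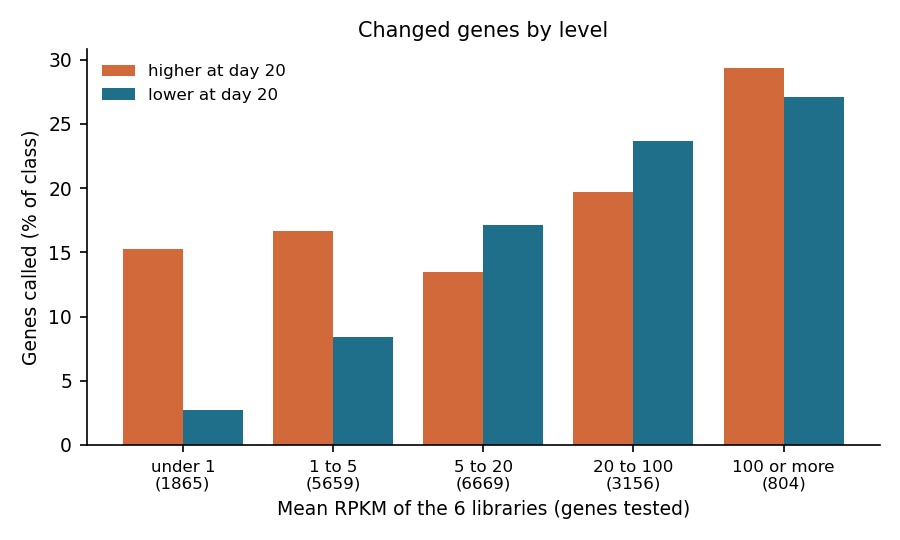
Share of tested genes called higher (orange) or lower (blue) at day 20, in percent of the genes of a class (y axis), for 5 classes of mean RPKM over the 6 libraries (x axis, number of tested genes in brackets). The share called lower goes from 2.73% under 1 RPKM to 27.1% at 100 RPKM or more, while the share called higher goes from 15.3% to 29.4%.

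Genes that rose most between day 10 and day 20 were low at day 10 and reached 12.4 to 294 RPKM on average at day 20. Csa1G043220 had the largest rise. It stood at 4.47, 1.60 and 2.48 RPKM in the day 10 libraries and at 235, 243 and 185 RPKM at day 20, and the log2 fold change was 5.91 (SE 0.26, adjusted p = 1.33e-10, limma). Csa5G649870 came next, at 1.99, 3.64 and 4.61 RPKM and then 190, 182 and 205 RPKM, and its log2 fold change was 5.50 (SE 0.21, adjusted p = 4.45e-11, limma). Both genes had 3 close libraries at day 20, and no library of day 10 came near them.

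A pair of neighbouring IDs rose together. Csa6G358140 had 0, 3.49 and 3.70 RPKM at day 10 and 64.0, 63.9 and 58.0 RPKM at day 20. Its neighbour Csa6G358130 had 4.49, 7.61 and 6.53 RPKM and then 97.9, 112 and 99.2 RPKM. Their log2 fold changes were 4.51 (SE 0.45) and 3.87 (SE 0.17), with adjusted p of 1.28e-06 and 1.21e-10 in limma. The value of Csa6G358140 rests partly on the 0 in replicate 1 of day 10, without which the log2 fold change was 3.78.

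Csa1G423060 reached the highest day 20 level among the 14 genes with the largest rise. It had 11.3, 27.0 and 38.3 RPKM at day 10 and 188, 314 and 381 RPKM at day 20, and in both groups replicate 1 was lowest and replicate 3 highest. Its log2 fold change was 3.57 (SE 0.47, adjusted p = 2.36e-05, limma). Csa5G174570 had the same order of the libraries only at day 20, with 70.7, 122 and 128 RPKM after 5.75, 11.7 and 8.80 RPKM at day 10. Csa6G423400 varied little, from 2.95, 4.63 and 3.93 RPKM to 56.7, 64.3 and 60.5 RPKM. So did Csa2G070310, from 2.97, 3.06 and 1.97 RPKM to 41.3, 40.8 and 37.7 RPKM.

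In Csa2G005960 and Csa5G198120 the order among the day 20 libraries was the reverse, with replicate 1 highest. Csa2G005960 went from 3.74, 3.76 and 2.33 RPKM to 101, 68.7 and 49.6 RPKM. Csa5G198120 went from 4.30, 2.37 and 3.06 RPKM to 87.0, 66.8 and 47.0 RPKM. Their log2 fold changes were 4.07 and 3.98, with adjusted p of 2.67e-07 and 7.48e-10 (limma), and the SE was 0.35 and 0.20.

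Among the 14 risen genes, the day 10 libraries disagreed most for Csa5G487690, at 16.1 RPKM in replicate 1 and 0.584 and 2.24 RPKM in the others. All 3 day 20 libraries, at 46.0, 65.8 and 48.5 RPKM, lay above them. The log2 fold change was 3.6 (SE 0.56, adjusted p = 1.23e-04, limma), 4.57 without replicate 1 of day 10 and 2.85 without replicate 2 of day 10. Csa3G391390 showed the same order at day 10, with 4.27, 0.595 and 2.00 RPKM, and had 31.0, 36.9 and 31.3 RPKM at day 20. The last of the 14 risen genes were Csa6G092510, at 0.465, 1.93 and 1.30 RPKM and then 23.1, 24.5 and 20.5 RPKM, and Csa7G298840. The latter was at 0, 0.354 and 0.412 RPKM at day 10 and at 14, 13.3 and 9.74 RPKM at day 20. Over the 14 genes the log2 fold changes ran from 3.41 to 5.91, and no library of one time reached into the range of the other, by the rule that chose the genes.

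Among the genes that fell most, several were abundant at day 10. Csa6G017030 stood at 184, 215 and 243 RPKM at day 10 and at 6.33, 6.26 and 7.17 RPKM at day 20, and the log2 fold change was -4.82 (SE 0.15, adjusted p = 9.85e-12, limma). Csa1G002090 went from 164, 206 and 203 RPKM to 6.32, 8.17 and 9.77 RPKM, and here the log2 fold change was -4.41 (SE 0.16, adjusted p = 3.48e-11, limma). The spread between libraries of a time was small beside both falls.

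Csa6G007450 came closest to 0 among the 14 fallen genes. It had 23.2, 26.4 and 19.8 RPKM at day 10 and 0.495, 0.0709 and 0.0949 RPKM at day 20 (log2 fold change -4.31, SE 0.19, adjusted p = 1.88e-10, limma). Csa3G357110 fell from 114, 175 and 147 RPKM to 5.58, 9.52 and 7.78 RPKM. Csa1G542510 fell from 120, 130 and 119 RPKM to 9.92, 5.35 and 5.03 RPKM, and replicate 1 was the highest of its day 20 libraries. Csa3G105950 fell from 212, 136 and 157 RPKM to 10.9, 9.48 and 7.57 RPKM.

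For a group of 4 fallen genes the day 10 level was well above 100 RPKM and that of day 20 near 10 RPKM. They were Csa3G105950, just given, Csa7G032240, Csa7G056500 and Csa6G318680. Csa7G032240 had 159, 132 and 138 RPKM and then 16.2, 7.48 and 9.56 RPKM. Csa7G056500 had 144, 214 and 169 RPKM and then 15.3, 13.1 and 11.9 RPKM. Csa6G318680 had 154, 180 and 153 RPKM and then 11.2, 12.9 and 14.6 RPKM. The log2 fold changes of the last 3 lay between -3.63 and -3.56, with adjusted p in limma of 2.49e-09, 7.32e-11 and 3.76e-11.

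Another 3 fallen genes stood at 43.1, 59.7 and 54.9 RPKM on average at day 10. Csa4G308490 went from 34.6, 47.4 and 47.3 RPKM to 2.10, 1.57 and 2.30 RPKM. Csa7G067370 went from 53.0, 58.6 and 67.5 RPKM to 5.99, 1.99 and 2.91 RPKM. Csa1G022490 went from 53.3, 62.9 and 48.5 RPKM to 4.90, 4.25 and 3.18 RPKM. Csa4G308490, Csa7G067370 and Csa1G022490 had averages of 1.99, 3.63 and 4.11 RPKM left at day 20, and their libraries did not overlap.

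Neighbouring IDs on chromosome 5 changed in opposite directions. Csa5G487700 fell from 52.6, 45.4 and 29.2 RPKM to 2.31, 1.74 and 1.77 RPKM (log2 fold change -3.85, SE 0.25, adjusted p = 1.20e-08, limma), while Csa5G487690, the ID just before it, rose as given above. Csa5G485690, 3 IDs before Csa5G487700 in ID order, fell from 35.9, 28.7 and 29.7 RPKM to 1.39, 1.25 and 1.93 RPKM. No source used here gives the strand setting of the counting, so reads of overlapping genes on opposite strands could not be told apart.

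**Figure D4:**
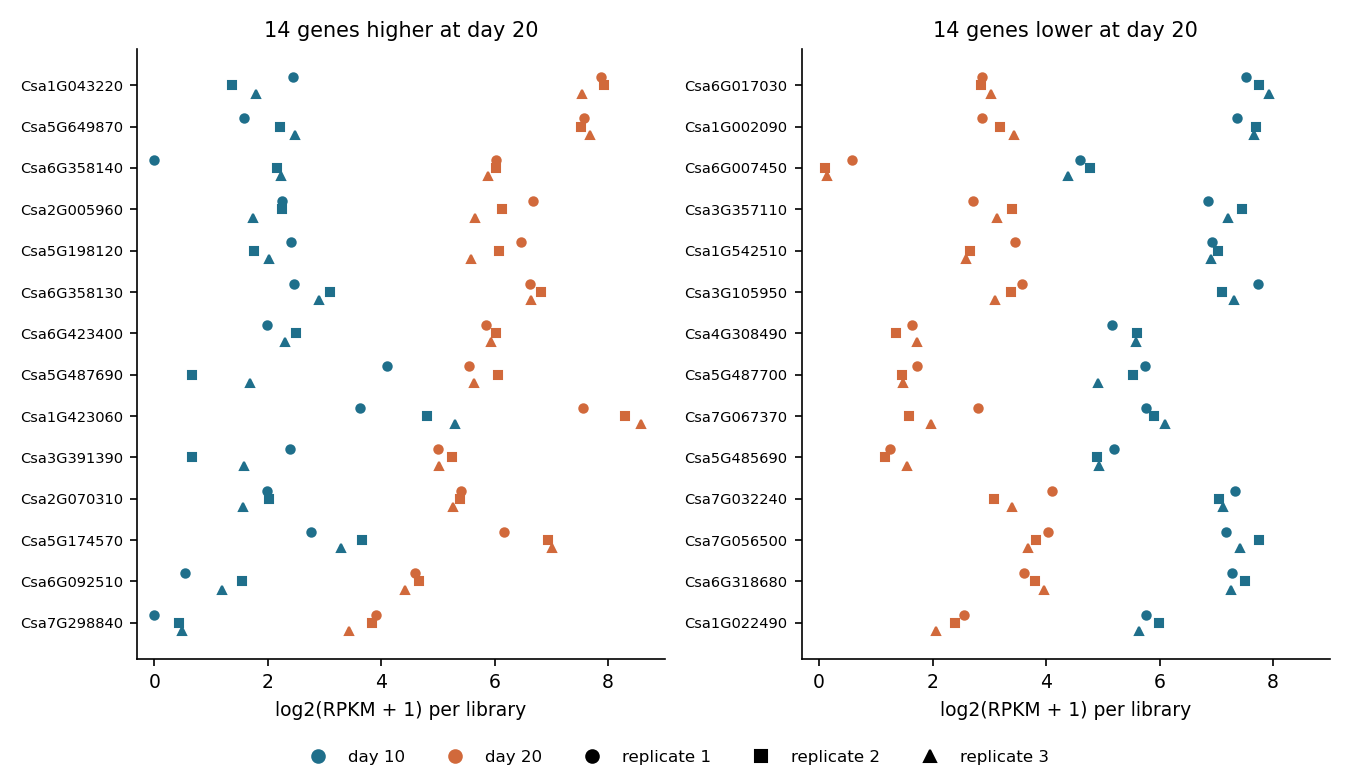
Level of the 14 genes with the largest rise (left) and the 14 with the largest fall (right), as log2(RPKM + 1) of each library (x axis), 1 row per gene; blue is day 10, orange day 20, and the symbol is the replicate number. The colours do not overlap in any row, and the widest spread within a time is that of Csa5G487690 at day 10, from 0.584 to 16.1 RPKM.

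At the other times most of the 28 genes were low. The libraries of these times entered the filter and the estimate of the spread, and not the means of day 10 and day 20. Of the 14 that rose, 13 had their highest mean of the 6 times at day 20, and 13 were at or under 1/4 of their day 20 level again at day 30. Csa6G092510 was the exception at both, with means of 1.23 RPKM at day 10, 22.7 at day 20, 160 at day 30 and 37.4 at day 60. Csa1G043220 was back at 1.19 RPKM at day 30 and Csa5G198120 at 0.129 RPKM. Csa5G198120, Csa1G423060, Csa2G005960 and Csa5G487690 had day 2 means of 28.4, 34.9, 19.1 and 14.3 RPKM, beside 3.24, 25.5, 3.28 and 6.31 RPKM at day 10, a difference that was not tested. All 14 fallen genes had their highest mean at day 10. Of these, 9 were at or under 1/4 of that level at day 2 and 12 at day 30. Csa1G002090 had under 1 RPKM at every other time but day 20, from 0.114 RPKM at day 30 to 0.897 RPKM in fresh ovaries. Csa7G056500 had means of 13.4 RPKM at day 20, 56.8 at day 30 and 75.9 at day 60.

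**Figure D5:**
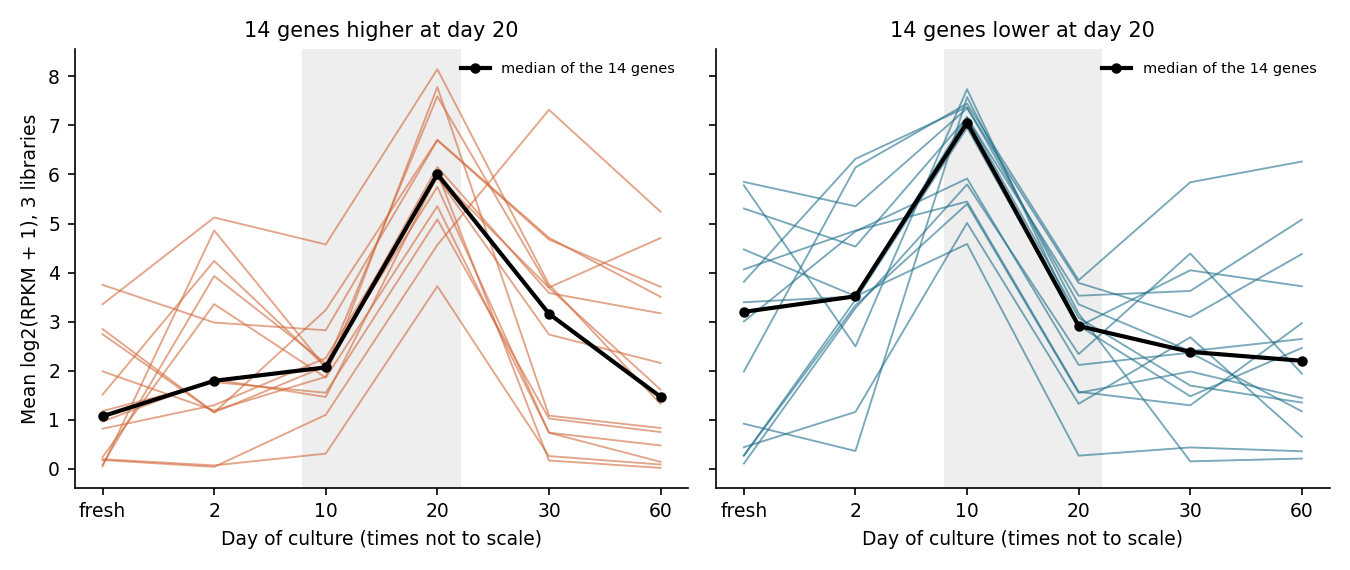
Mean log2(RPKM + 1) over 3 libraries (y axis) at the 6 times of the series (x axis, days of culture, not to scale) for the 14 genes with the largest rise from day 10 to day 20 (left) and the 14 with the largest fall (right); thin lines are genes, the thick line is their median, and the grey band marks day 10 and day 20. Of the risen genes 13 peak at day 20 and 1 at day 30, and all 14 fallen genes peak at day 10.

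Of the 1069 genes that rose at least 2-fold, 625 had their highest mean at day 20, 137 at day 30, 132 in fresh ovaries, 106 at day 60 and 69 at day 2. Of the 575 that fell at least 2-fold, 402 had it at day 10, 80 at day 2, 51 in fresh ovaries, 24 at day 60 and 18 at day 30. Since the list was chosen on the levels of day 10 and day 20, these counts are a description. The mean at day 30, on the log2 scale, was nearer to that of day 10 for 622 of the 1069 risen genes and nearer to that of day 20 for 447. For the 575 fallen genes it was nearer to day 20 for 432 and to day 10 for 143. This was not particular to day 30. In fresh ovaries, at day 2 and at day 60, 63.6%, 72.7% and 62.9% of the risen genes were nearer to day 10. Of the fallen genes, 65.4%, 62.6% and 77.9% were nearer to day 20 at these times. Over all called genes, small changes included, the balance differed. At day 30, 1688 of the 2983 risen genes, or 56.6%, were nearer to day 20 and 1295 to day 10, and of the 2634 fallen genes 1347, or 51.1%, were nearer to day 20 and 1287 to day 10.

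Comparisons between means that hold no library of day 10 or day 20 placed the same genes in the rest of the culture. Their calls are not independent of the lists, since the same estimate of the spread of a gene entered both. Day 30 was higher than day 2 for 503 of the 1069 risen genes, or 47.1%, against 30.3% of all tested genes, and lower for 212, or 19.8%, against 20.6%. In the 575 fallen genes the balance was the other way, with 150 higher at day 30 than at day 2, or 26.1%, and 251 lower, or 43.7%. The median log2 fold change of day 30 over day 2 was 0.42 in the risen genes, -0.28 in the fallen ones and 0.10 over all tested genes. Day 2 against fresh ovaries was lower for 457 of the risen genes, or 42.8%, where 32.3% of all tested genes were lower, and higher for 307, or 28.7%, where 31.1% were. Of the fallen genes, 253 or 44.0% were higher at day 2 than in fresh ovaries and 173 or 30.1% were lower. Day 60 was lower than day 30 for 394 of the risen genes, or 36.9%, and for 173 of the fallen genes, or 30.1%, against 23.1% of all tested genes. It was higher for 200 and 120 of them, 18.7% and 20.9%, against 17.2%. These calls are of the limma fit on 18 libraries, and no test of the lists was made. The part of the shared spread in the shares called was not tested.

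A few genes were at or near 0 at 1 of the times. With an RPKM of at least 1 in all libraries of day 20 and under 0.1 in all of day 10 there were 7 genes, and 2 with the reverse, of which 6 and 2 are described. Csa3G733910 had 0 reads in the 3 day 10 libraries together and 49, 53 and 65 reads, or 6.19, 5.51 and 3.29 RPKM, at day 20. Against a floor of 3 reads over the group this was at least 49.7-fold higher. Csa7G048070 had 96, 197 and 249 reads at day 10, or 5.27, 7.97 and 5.52 RPKM, and 0 in all 3 libraries of day 20, at least 202-fold lower. It was also listed at 0 in fresh ovaries and at day 30, and its mean was 0.328 RPKM at day 2 and 0.0874 at day 60. Csa6G476630 had 1057 reads at day 10 and 28 at day 20, a ratio of 42.3 (95% exact counting interval 29.1 to 64.0).

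The other genes near 0 at day 10 had low levels at day 20, and some had been present before. Csa5G590180 had means of 3.56 RPKM in fresh ovaries and 13.9 RPKM at day 2, above its 3.16 RPKM at day 20, and Csa3G733910 had 1.71 and 0.969 RPKM at these earlier times. Csa3G779000 had 1 read at day 10 and 32, 47 and 103 reads at day 20, or 1.82, 2.20 and 2.35 RPKM, and the ratio was 162 with a counting interval of 28.8 to 6451. It was at 0.00711 RPKM at day 30 and 0 at day 60. Csa4G377170 had 1 read at day 10 and 7.20, 1.07 and 2.32 RPKM at day 20. Csa5G590180 had 1 read and then 6.05, 1.83 and 1.62 RPKM. In both genes replicate 1 was the highest of the day 20 libraries. Csa4G111600, with 1 read at day 10, had 5.52, 5.81 and 1.5 RPKM at day 20 and a mean of 33.0 RPKM at day 30. Csa7G376360, with 8 reads at day 10, had 1.47, 2.09 and 1.11 RPKM at day 20 and 18.1 RPKM at day 30. Intervals and floors cover counting error only, because without molecular identifiers reads may be copies of 1 molecule. Whether both ends of a fragment were counted as separate reads is not known. If they were, the intervals are too narrow even for counting error.

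Of the 10 most abundant genes of these embryos, 3 rose, 1 fell and 6 were not called, so that 4 of 10 were called beside 30.9% of all tested genes and 56.5% of those at 100 RPKM or more. Csa4G620620 had the highest mean level, at 6623, 4895 and 8257 RPKM at day 10 and 8221, 6923 and 9763 RPKM at day 20, and the groups overlapped (adjusted p = 0.338, limma). In fresh ovaries its mean was 381 RPKM. Csa2G023940 followed, at 12194, 11123 and 3438 RPKM and then 7787, 7477 and 2628 RPKM. Its replicate 3 libraries were low at both times, and the difference between times was not called (adjusted p = 0.680, limma). All 3 pairs of the same number were lower at day 20, and with the replicate number as a block the adjusted p in limma was 0.0507 over 18 libraries and 0.00429 over the 6. At every other time too, replicate 3 was the lowest library of this gene, as at day 30 with 3121, 2827 and 1066 RPKM.

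Csa5G161900 rose from 959, 974 and 950 RPKM to 2504, 3020 and 3183 RPKM, and the log2 fold change was 1.59 (SE 0.26, adjusted p = 2.15e-04, limma). It was called in the fit on 6 libraries and not with a pseudocount of 0.1. Its level in fresh ovaries was 0.766 RPKM and at day 60 102 RPKM. Csa5G606810 rose from 1642, 1389 and 1081 RPKM to 3999, 2608 and 2125 RPKM (log2 fold change 1.06, SE 0.22, adjusted p = 0.00182, limma) and had 7266 RPKM at day 30. Csa4G645890 rose from 1733, 1349 and 1727 RPKM to 2921, 2051 and 2735 RPKM (log2 fold change 0.67, SE 0.17, adjusted p = 0.00662, limma). Csa6G518000 fell from 2966, 2872 and 2475 RPKM to 2424, 2044 and 1836 RPKM (log2 fold change -0.40, SE 0.12, adjusted p = 0.0199, limma), and this call ended in the fit on 6 libraries, with an adjusted p of 0.105. It also ended in the 4 libraries left without replicate 1 (adjusted p = 0.0702, limma) and on leaving out any of 4 libraries, with adjusted p in limma of 0.0709 and 0.0626 without replicates 1 and 2 of day 10 and 0.0574 and 0.0937 without replicates 2 and 3 of day 20. Csa4G645890 lost its call only in the 2-fold tests and in the 4 libraries left without replicate 1, where its adjusted p was 0.0921. With the replicate number as a block over 18 libraries, Csa7G398090, Csa3G271360, Csa6G318160 and Csa4G620620 were called as well, with adjusted p of 0.00157, 0.00251, 8.51e-04 and 0.0345 in limma. Without it, Csa6G318160 was called on leaving out replicate 1 of day 10 (adjusted p = 0.0356, limma) and Csa7G398090 on leaving out replicate 2 of day 10 (adjusted p = 0.0400, limma). Csa6G318160, Csa7G398090 and Csa3G271360 were also called with voom on reads recovered from the values. Csa7G398090 was called under median-ratio and upper quartile scaling too.

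Of the 1644 genes changed at least 2-fold, 319 stood in 148 runs of 2 or more consecutive IDs that changed in the same direction, and 2 runs held 4 genes or more. Among 18153 tested genes, 1069 rose and 575 fell this much. How many runs would form by position alone was not worked out, so the runs are a description. The longest run had 5 risen genes on chromosome 7, Csa7G396480, Csa7G396490, Csa7G396500, Csa7G397000 and Csa7G397010. Csa7G396480 was the most abundant of them, at 32.1, 37.8 and 33.9 RPKM and then 82.6, 97.2 and 97.2 RPKM. Csa7G396500 had the largest rise, from 7.49, 4.10 and 4.67 RPKM to 39.6, 28.4 and 26.6 RPKM (log2 fold change 2.36, SE 0.27, adjusted p = 5.14e-06, limma). The other 3 were lower, with day 20 means of 6.34, 2.58 and 1.53 RPKM, and Csa7G397000 lost its call in the fit on 6 libraries, with an adjusted p of 0.0564. How many of these genes are copies that share reads was not tested.

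The run of 4 lay on chromosome 1, from Csa1G044870 to Csa1G044900. Csa1G044890 stood at 31.9, 35.0 and 38.3 RPKM at day 10 and at 61.5, 96.5 and 97.1 RPKM at day 20. Csa1G044880 rose most, from 8.11, 9.76 and 10.5 RPKM to 39.5, 39.9 and 36.0 RPKM, with a log2 fold change of 1.92 with SE 0.18 and adjusted p = 5.27e-07 in limma. All 4 genes were low at the times on either side. At day 2 their means were 1.58, 0.610, 0.0789 and 0.338 RPKM in ID order, and at day 30 they were 2.23, 0.530, 2.01 and 0.309 RPKM. By ID, 30.1% to 32.5% of the tested genes on each of chromosomes 1 to 7 were called, beside 30.9% over all, and 17.7% of the 96 genes on no numbered chromosome. No test between chromosomes was made.

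In some genes the replicates of a day differed more than the days. Csa6G239680 had 7793, 623 and 514 RPKM at day 10 and 5551, 531 and 379 RPKM at day 20, so that replicate 1 was far above the others at both times while the difference between days was not called (adjusted p = 0.866, limma). Csa4G243390 had the same form, at 3131, 324 and 353 RPKM and 1809, 236 and 209 RPKM. So did Csa2G252100, at 315, 43.8 and 12.8 RPKM and 258, 33.1 and 9.69 RPKM, and Csa4G652690, at 254, 31.0 and 10.1 RPKM and 118, 19.2 and 2.88 RPKM. At day 2 the same 4 genes were highest in replicate 2, where Csa6G239680 reached 10642 RPKM against 832 and 677 RPKM. They were chosen because their replicate 1 libraries lay farthest above the others, so their order at day 10 and day 20 is no test. In all 4, each library of day 20 was below that of the same number at day 10. With the replicate number as a block over the 6 libraries they were called lower at day 20, with adjusted p in limma of 0.0135 for Csa6G239680, 0.00537 for Csa4G243390, 0.0133 for Csa2G252100 and 0.0112 for Csa4G652690, and over 18 libraries they were not, with 0.812, 0.639, 0.775 and 0.368. Csa4G243390 was also called in the 4 libraries left without replicate 1 (adjusted p = 0.0278, limma).

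The 4 genes farthest in the other direction were short. Csa6G237590 had 1.18, 11.4 and 20.5 RPKM at day 10 and 0.883, 9.08 and 18.8 RPKM at day 20. Csa1G077200, Csa6G042320 and Csa2G435450 had 0 reads in replicate 1 at both times, and between 3.34 and 8.93 RPKM in the other libraries. Of these, Csa2G435450 was called lower at day 20 without replicate 1 of day 10 (adjusted p = 0.0455, limma) and in the 4 libraries left without replicate 1 (adjusted p = 0.0151, limma). Their lengths worked out from the values were 174 to 255 bases. Over all tested genes under 300 bases, the replicate 1 library lay a median of 0.22 below the mean of the other libraries on the log2(RPKM + 1) scale at day 10, and 0.19 below it at day 20. Replicate 3 lay 0.23 and 0.14 above the others at these days, and replicate 2 lay 0.04 below them at both. At the other times replicate 3 lay 0.09 to 0.14 above the others, and replicate 1 at most 0.06 below them. At 1000 to 2000 bases the medians for replicate 1 of day 10 and day 20 were -0.03 and -0.01. In all, 73 genes were lowest in replicate 1 by at least 2-fold at both times, and 31 were highest there by as much, while replicate 2 had 1 and 1 such genes and replicate 3 had 29 and 12. The share of called genes that were higher at day 20 went from 61.4% in genes under 300 bases to 48.5% in those of 4000 bases or more, and the part of the replicate 1 libraries in this was not tested.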

How the data were processed

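RNA-seq was available for 18 libraries, and the 6 of day 10 and day 20 were compared. The submitters' processing notes name HTSeq 0.6.1p2 beside TopHat and TopHat2. Build, annotation and strand setting were not given in the sources used. Each library has 1 column of RPKM, as the authors deposited it and per the file headers. In the file of the fresh ovaries the 3 column names share 1 cell, which was split.

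The test used log2(RPKM + 1), a pseudocount of 1, in limma 3.58.1 (R 4.3.3), with trended and robust empirical Bayes variances, 1 coefficient per time over all 18 libraries, no minimum fold and Benjamini-Hochberg adjustment. Fold changes on this scale understate the change of low genes. Genes had to reach an RPKM of 1 in 3 libraries. The main test was not a count test, as the values are RPKM. A fit with voom on reads recovered from the values was an alternative.

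Depth was worked out from the values, which step in whole reads. All 21761 genes above 0 gave whole reads within 0.1 of a read, and library totals were 21.8 to 72.5 M (mega) reads assigned to genes, so that totals and lengths were recovered from the files and not taken from the authors. Lengths of genes with few reads may be too short by a whole factor. The recovery and the limma test were tested on simulated data.

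Libraries of the same number deviated together between day 10 and day 20, with correlations of the deviations of 0.41, 0.23 and 0.61 for replicates 1, 2 and 3. Every correlation was over 0.1, so the numbers were taken to pair the libraries, from the data and not from the labels. What a number stands for is not stated. Replicate 3 was also the deepest library at every time, with 57.4 M reads at day 10 and 66.5 M at day 20. The part of depth in the shared deviations was not tested. The main test and the permutation tests did not use the pairing. The replicate block was an alternative and is named where it changed a call.

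The named genes were the 14 risen and 14 fallen genes with the largest fold changes called in both fits with libraries that do not overlap, the 10 most abundant, up to 6 in each direction at or near 0 at 1 time, runs of at least 4 neighbouring IDs, and 4 in each direction with replicate 1 farthest from the others. The comparison and these lists were chosen with earlier results of these data known. Cell type marker lists were not used, because 0 IDs matched. The rest ran in Python 3.11.15 (scipy 1.17.1, pandas 2.3.3, matplotlib 3.10.9, numpy 2.4.6).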

Additional observations from a re-analysis of the deposited data

How the results depend on the processing

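The count of 5617 called genes stayed within 1.5 times under other pseudocounts, filters, scalings and voom on the recovered reads, which gave 5404 to 5724 genes. With only the 6 libraries it was 3113 (1736 higher, 1377 lower), with the 4 libraries left without replicate 1 of both times 3501 (1973 higher, 1528 lower), and tested against a 2-fold change 527 (343 higher, 184 lower), or 304 (188 higher, 116 lower) with the 6 libraries, an alternative chosen after seeing the data. The cause of the first of these was not tested, and the last are fewer by construction. Leaving out 1 library in turn gave 4807 to 5393 genes, 2570 to 2967 higher and 2237 to 2522 lower, where the spread of the 2 libraries left is taken from all times. Genes called with at least a 2-fold change numbered 1644 with the pseudocount of 1, 2017 with 0.5 and 2340 with 0.1. With voom on the recovered reads there were 2284. The lists and runs of genes changed at least 2-fold were made with the pseudocount of 1 and depend on it.

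With the replicate block 7289 genes were called in the fit on 18 libraries and 5224 in that on 6, where 3713 and 2602 were higher. The 49 named genes called without the block kept their direction and call in it.

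Of 1029 alternatives of these 49 genes, 987 kept direction and call and 42 lost the call, most of them against a 2-fold change. Reversals, 18 in number, came only in the 8 uncalled genes chosen for their replicate 1 libraries, when 1 library was left out. The ranges of the log2 fold change were -1.02 to 0.72 for Csa1G077200, -1.60 to 0.87 for Csa2G252100, -1.70 to 0.07 for Csa2G435450, -1.67 to 0.40 for Csa4G243390, -2.34 to 0.16 for Csa4G652690, -0.96 to 0.65 for Csa6G042320, -1.18 to 0.76 for Csa6G237590 and -1.59 to 0.88 for Csa6G239680. Depth limits low genes, which rest on few reads.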
